A study of Mus musculus with 2 samples.

Results

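The 9 genes described here encode inhibitors and feedback regulators of the transcription factor NF-kB: Nfkbia, Nfkbib, Nfkbie, Nfkbiz, Bcl3, Tnfaip3, Tnip1, Traf1 and Birc3. They were chosen by symbol, and all 9 were found among the 31053 genes of the matrix. Droplet 3′ single-cell RNA sequencing had been done on viable cells sorted for CD45, the surface marker of white blood cells, from B16F10 tumours, a transplanted mouse melanoma line, 2 weeks after the tumour cells were injected. One group was wild type (LysM-cre x Rel+/+) and the other was a myeloid conditional Rel knockout (LysM-cre x RelloxP/loxP), so that both groups carried LysM-cre. LysM-cre is driven by the lysozyme M gene and acts in macrophages, neutrophils and part of the monocytes. Each group was 1 library from 5 pooled tumours, and tumours had been digested with collagenase and DNase before the sort. Rel encodes c-Rel, a subunit of NF-kB, and the study asked about its part in myeloid cells of the tumour.

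The deposited matrix held both libraries, told apart by a number after each barcode. The sources used here do not tie that number to a genotype. They are therefore called library 1 and library 2, and nothing below is read as an effect of the Rel deletion. Library 1 had 7688 barcodes and 49129318 UMIs (unique molecular identifiers, which count captured RNA molecules), and library 2 had 10564 barcodes and 73507228 UMIs. After filtering, 5198 and 7999 barcodes were retained. The libraries shared 3609 barcode sequences, and the shallower barcode of a pair was left out when the deeper one held over 10 times as many UMIs. Against the CD45 sort, 43.2% and 66.5% of the retained barcodes were melanoma-like, with Ptprc, the gene of CD45, at 6.67 and 3.97 CPM (UMIs of a gene scaled to 1000000 UMIs of the class), against 730 and 498 CPM in monocyte-like barcodes.

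Barcodes were placed in classes by sets of marker genes that hold none of the 9 genes. Library 1 and library 2 held 579 and 475 monocyte-like, 413 and 622 macrophage-like, 127 and 59 neutrophil-like, 44 and 35 dendritic-like, 330 and 218 CD8 T-like, 216 and 54 NK-like, and 137 and 10 B-like barcodes. Each class had between 2 and 8 of its own markers and 0 of another class among its 10 leading genes. The same markers had placed the barcodes, so this count is no check of the classes. The B-like class had 2 of its markers there, Cd79a and Cd79b, beside antibody genes such as Igkc, Igha and Jchain. The thresholds of the gates were set after the data had been seen. With 1 library per genotype there is no replicate and no test. All intervals below are at 95% and cover counting error only. A gene counts as higher in a class when its CPM ratio, with 0.5 UMIs added to each class, was at least 2 in both libraries, and the 2 classes together held at least 50 of its UMIs in each library.

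NF-kB dimers are held in the cytoplasm by IkB proteins until a signal leads to the breakdown of the IkB. Several of the genes that NF-kB then switches on encode its own brakes, so that a cell's response ends in resynthesis of IkB and in the removal of ubiquitin chains from the signalling complexes. In tumours, macrophages, monocytes and neutrophils are known to use this pathway to make interleukin-1, prostaglandins and chemokines. Nfkbia, Nfkbib and Nfkbie encode the IkB proteins alpha, beta and epsilon. Nfkbiz and Bcl3 encode IkB proteins of the nucleus, IkB zeta and BCL3, which bind the p50 and p52 subunits and can raise as well as lower transcription. Tnfaip3 encodes the ubiquitin-editing enzyme A20, and Tnip1 encodes ABIN1, which binds ubiquitin chains and A20. Traf1 encodes an adaptor of TNF receptors, and Birc3 encodes cIAP2, a ubiquitin ligase of the same receptor complexes.

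The promoter letters that resemble an NF-kB site are shown first, since several of these genes are known as NF-kB targets. The promoters of 8 of the 9 genes had an entry in RefSeq (GRCm38.p6, 250 bases before to 50 after the transcription start); Nfkbiz had none. A search on both strands for the 10-base kappa B consensus found a match in 5 of 9 promoters, each of a different gene. The same motif was in 8.46% of the 32851 promoters of this length. The matches are in capitals, each within its flanking bases and 5′ to 3′ on the strand of the gene.
Nfkbia, chr12:55492657-55492686, minus strand: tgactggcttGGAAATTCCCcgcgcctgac
Nfkbie, chr17:45555584-45555613, plus strand: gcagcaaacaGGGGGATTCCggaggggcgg
Bcl3, chr7:19822734-19822763, minus strand: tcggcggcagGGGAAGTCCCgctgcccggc
Tnip1, chr11:54962977-54963008, minus strand: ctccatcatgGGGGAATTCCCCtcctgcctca
Tnfaip3, chr10:19015403-19015545, minus strand: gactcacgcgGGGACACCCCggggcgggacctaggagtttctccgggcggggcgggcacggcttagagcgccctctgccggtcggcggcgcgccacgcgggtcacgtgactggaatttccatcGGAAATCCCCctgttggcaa
The match began 29 bases before the start in Nfkbia, 106 bases before it in Nfkbie and just past it in Bcl3. Tnip1 carried 3 overlapping matches from 58 to 56 bases before the start, and Tnfaip3 carried 2 separate ones, 125 and 12 bases before it; 1.22% of all promoters had 2 or more. No match lay in these windows of Traf1, Nfkbib, Birc3 or the other Tnfaip3 promoter. A match is a description of the letters and not a measured binding site.

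In mm10 with the GENCODE M21 annotation, Nfkbia spans 55489410 to 55492647 of chromosome 12 (minus strand) in 6 exons, and Nfkbie spans 45555703 to 45563169 of chromosome 17 (plus strand). Nfkbib covers 28758251 to 28767512 of chromosome 7 (minus strand) and overlaps Ccer2 and Sirt2 on the opposite strand. Bcl3 covers 19808462 to 19822770 of the same chromosome (minus strand) and overlaps the transcripts Gm16174 and Gm16175. Nfkbiz is on chromosome 16 (55811375 to 55838899), Tnfaip3 on chromosome 10 (19000910 to 19015657), Tnip1 on chromosome 11 (54910785 to 54962917, overlapping Gm12230), Traf1 on chromosome 2 (34941750 to 34961772) and Birc3 on chromosome 9 (7848699 to 7873186), all on the minus strand. The sources used here do not say whether counting used strand, so the levels of Nfkbib, Bcl3 and Tnip1 could include reads of the overlapping genes.

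Relative to all UMIs of a class, neutrophil-like and monocyte-like barcodes held most RNA of these genes and melanoma-like barcodes held little. The 9 genes together stood at 8951 and 3169 CPM in neutrophil-like, 4545 and 2184 CPM in monocyte-like, 2159 and 888 CPM in macrophage-like and 1861 and 757 CPM in dendritic-like barcodes of library 1 and library 2. They stood at 1036 and 809 CPM in NK-like, 797 and 919 CPM in CD8 T-like, 739 and 122 CPM in B-like (92 and 2 UMIs) and 141 and 127 CPM in melanoma-like barcodes. Macrophage-like, dendritic-like, NK-like and CD8 T-like barcodes thus stood near each other in library 2. Nfkbia made up 64.2% and 64.3% of the 9 genes' UMIs in monocyte-like barcodes, 61.9% and 57.6% in macrophage-like and 76.5% and 64.8% in neutrophil-like barcodes. In CD8 T-like barcodes it made up 38.2% and 41.7%, with Traf1 next at 26.2% and 19.0%. In melanoma-like barcodes Nfkbib led, with 29.0% and 37.3%, before Nfkbia (27.0% and 20.5%) and Tnip1 (22.2% and 23.3%). The UMIs come from the 3′ ends of molecules, so these shares were not divided by gene length.

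**Figure D1:**
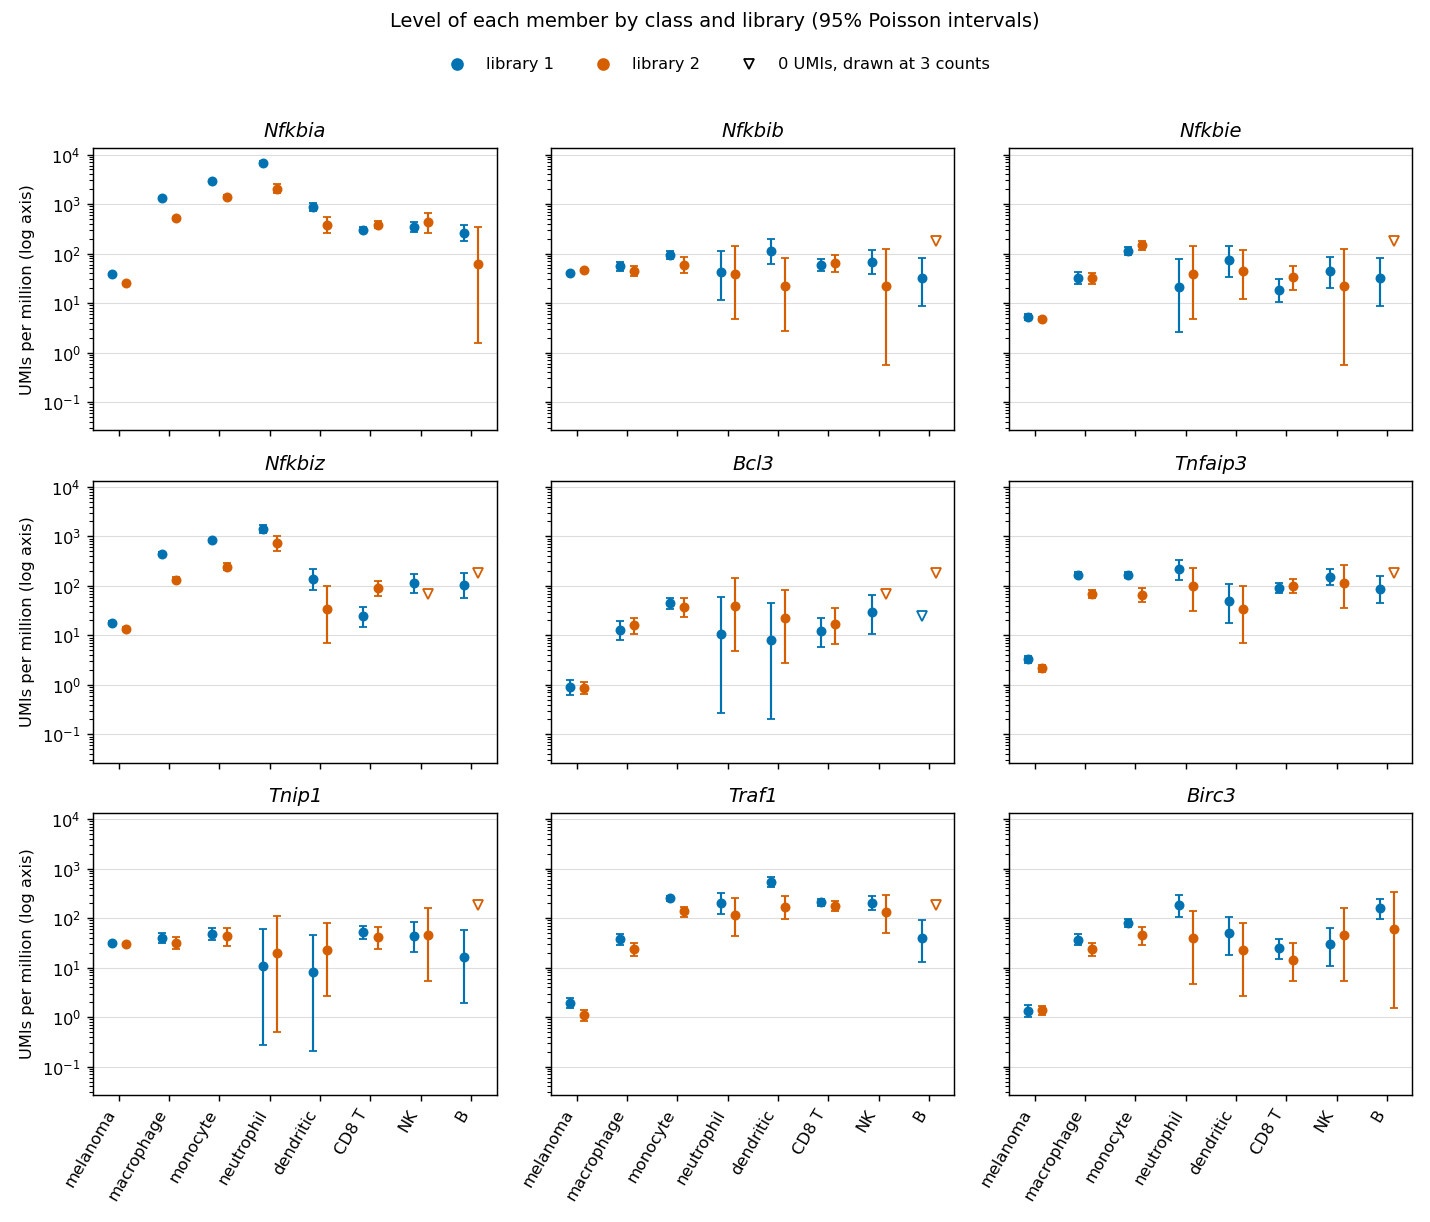
Level of each of the 9 genes (CPM, log axis) in each marker-gated class, with library 1 and library 2 drawn as separate points and bars for the 95% Poisson interval, which covers counting error only. Nfkbia reached 6845 CPM in neutrophil-like barcodes of library 1 and stood at 38.3 CPM in melanoma-like barcodes, while Nfkbib stood between 41.0 and 94.3 CPM and Tnip1 between 29.5 and 52.7 CPM in melanoma-like, macrophage-like, monocyte-like and CD8 T-like barcodes.

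Among the cytoplasmic inhibitors, Nfkbia showed the widest range. In library 1 its level fell in the order neutrophil-like (6845 CPM, interval 6323 to 7397), monocyte-like (2917, 2823 to 3014), macrophage-like (1336, 1282 to 1391), dendritic-like (877, 719 to 1060), NK-like (345, 269 to 436), CD8 T-like (304, 267 to 344), B-like (265, 183 to 372) and melanoma-like (38.3, 36.4 to 40.2). In library 2 the levels were 2054 (1680 to 2487), 1405 (1308 to 1506), 512 (479 to 546), 384 (266 to 537), 427 (257 to 666), 383 (326 to 448), 60.8 (1.54 to 339, 1 UMI) and 25.9 CPM (24.7 to 27.2) for the same classes in turn. The first 3 classes kept their order in both libraries, and NK-like, CD8 T-like and dendritic-like barcodes overlapped in library 2.

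Nfkbib had a narrower range. It stood at 41.0 and 47.3 CPM in melanoma-like, 55.04 and 45.3 CPM in macrophage-like, 94.3 and 59.3 CPM in monocyte-like and 60.1 and 65.5 CPM in CD8 T-like barcodes. Its neutrophil-like level rested on 4 and 2 UMIs, and its dendritic-like level, 115 and 22.6 CPM, on 14 and 2. Nfkbie was highest in monocyte-like barcodes among the 4 largest classes, at 114 (95.6 to 134) and 145 CPM (116 to 181). It stood at 32.1 and 31.7 CPM in macrophage-like, 18.4 and 33.9 CPM in CD8 T-like and 5.25 and 4.76 CPM in melanoma-like barcodes. The macrophage-like and CD8 T-like intervals of Nfkbie overlapped in both libraries.

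Of the nuclear inhibitors, Nfkbiz had the class order of Nfkbia within the myeloid classes. It stood at 1418 and 724 CPM in neutrophil-like, 826 and 246 CPM in monocyte-like, 443 and 134 CPM in macrophage-like, 139 and 33.9 CPM in dendritic-like and 18.2 and 13.7 CPM in melanoma-like barcodes. In CD8 T-like barcodes it rested on 20 and 37 UMIs, at 24.5 and 89.7 CPM. Bcl3 was sparse, at 44.3 and 37.7 CPM in monocyte-like, 12.6 and 15.9 CPM in macrophage-like, 12.3 and 16.97 CPM in CD8 T-like and 0.895 and 0.866 CPM in melanoma-like barcodes. No UMI of Bcl3 was found in B-like barcodes of either library, which allows up to 24.1 CPM in library 1.

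The A20 pair differed in breadth. Tnfaip3 stood at 167 and 69.7 CPM in macrophage-like, 169 and 66.5 CPM in monocyte-like, 91.9 and 99.4 CPM in CD8 T-like and 153 and 112 CPM in NK-like barcodes. In neutrophil-like barcodes it stood at 215 CPM (20 UMIs) and 97.8 CPM (5 UMIs), and in melanoma-like barcodes at 3.28 and 2.18 CPM. Its partner Tnip1 stood between 29.5 and 52.7 CPM in melanoma-like, macrophage-like, monocyte-like and CD8 T-like barcodes of both libraries. T-like barcodes without CD8 genes, or with Cd4 or Foxp3, had 76.8 and 78.2 CPM of Tnip1.

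Traf1 stood at 541 CPM (419 to 688) in dendritic-like barcodes of library 1, above every other of the 8 classes, and at 169 CPM (94.8 to 279) in library 2, where the interval overlapped those of monocyte-like and CD8 T-like barcodes. The class holds conventional and migratory dendritic-like barcodes. The migratory ones, 18 and 5 in number, stood at 1785 CPM (1325 to 2353, 50 UMIs) and 663 CPM (215 to 1548, 5 UMIs), and the conventional ones at 170 and 123 CPM. Traf1 stood at 251 and 136 CPM in monocyte-like, 208 and 175 CPM in CD8 T-like, 207 and 135 CPM in NK-like, 204 and 117 CPM in neutrophil-like and 37.3 and 23.8 CPM in macrophage-like barcodes. Macrophage-like barcodes were thus the low class for Traf1 among the myeloid classes. Birc3 stood at 80.6 and 44.9 CPM in monocyte-like, 36.7 and 23.8 CPM in macrophage-like and 24.5 and 14.5 CPM in CD8 T-like barcodes. In B-like barcodes Birc3 stood at 161 CPM (98.2 to 248, 20 UMIs) in library 1, with 1 UMI in library 2.

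Compared with macrophage-like barcodes, monocyte-like barcodes held more Traf1, Nfkbie and Nfkbia. Of the 8 genes of the list with enough UMIs, 3 were at least 2-fold higher in both libraries, against 4.99% of all 5006 genes measured, and 0 were at least 2-fold lower, against 8.07%. Traf1 was 6.75-fold (5.15 to 8.96) and 5.73-fold (3.88 to 8.57) higher in library 1 and library 2. Nfkbie was 3.54-fold (2.58 to 4.91) and 4.58-fold (3.22 to 6.56) higher, and Nfkbia 2.18-fold (2.07 to 2.30) and 2.74-fold (2.49 to 3.02). The intervals of these 3 genes lay above 2 in both libraries. Birc3 passed 2-fold in library 1 alone, at 2.20 (1.59 to 3.05) and 1.89 (1.10 to 3.17), and Nfkbiz stayed under it at 1.87 (1.70 to 2.05) and 1.83 (1.47 to 2.27). Tnfaip3 had ratios of 1.01 (0.843 to 1.21) and 0.953 (0.641 to 1.39), with both intervals spanning 1. The genes of the A20 pair were thus not among those that set monocyte-like barcodes apart. Nfkbib (1.71 and 1.31) and Tnip1 (1.22 and 1.36) were below 2-fold as well. Bcl3 was 3.51-fold (2.11 to 6.05) and 2.38-fold (1.28 to 4.34) higher but missed the minimum of UMIs, with 49 in library 2. The median log2 ratio of the 8 genes was 1.01 and 0.90, against -0.09 and -0.14 for all genes. With median-of-ratios scaling the medians of all genes moved to 0.05 and 0.06, the share of higher among all called genes rose from 38.2% to 51.5%, and Nfkbiz and Birc3 passed 2-fold too, which made 5 of 8. Summed macrophage markers stood at 1461 and 686 CPM in monocyte-like barcodes, and 116 and 158 of these barcodes had only the minimum number of markers; the part of either in these ratios was not tested.

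**Figure D2:**
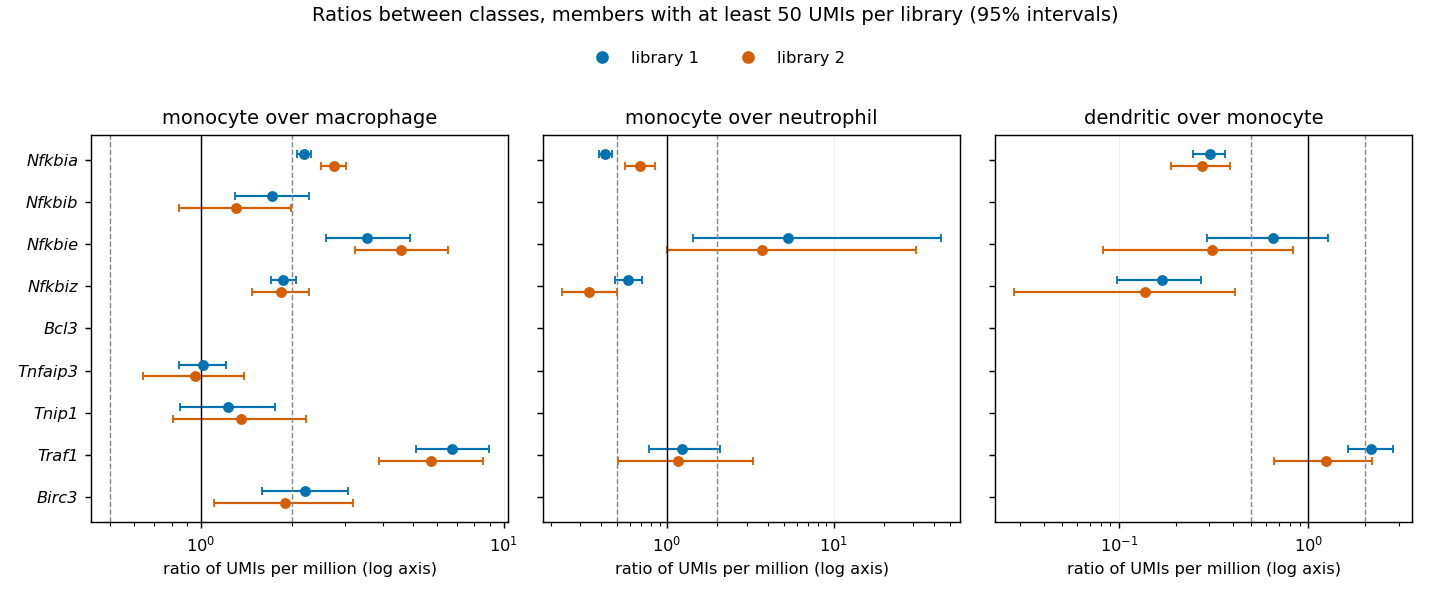
Ratio of CPM between classes (log axis) for those of the 9 genes with enough UMIs, with a separate point for each library. Bars are 95% conditional binomial intervals for counting error. Traf1, Nfkbie and Nfkbia lie beyond the 2-fold line in both libraries for monocyte-like over macrophage-like barcodes. The intervals of Tnfaip3 span the line of equal levels there.

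Compared with neutrophil-like barcodes, monocyte-like barcodes held less Nfkbia and Nfkbiz, but neither passed 2-fold in both libraries. The ratios of Nfkbia were 0.426 (0.392 to 0.464) and 0.684 (0.557 to 0.846), and those of Nfkbiz 0.582 (0.485 to 0.704) and 0.340 (0.235 to 0.503). Of 4 measured genes 0 were lower, against 3.76% of 1675 genes, and 1 was higher, against 16.5%. The higher gene was Nfkbie, at 5.29-fold (1.44 to 44.1) and 3.72-fold (0.997 to 31.2), on 2 neutrophil-like UMIs in each library. Traf1 was even, at 1.23 and 1.16. Neutrophil-like barcodes were shallow, with medians of 622 and 630 UMIs. Among barcodes with at least 1000 UMIs, of which 16 and 17 were neutrophil-like, the log2 ratio of Nfkbia was -0.05 and -0.17 in place of -1.23 and -0.55, that of Nfkbiz was -0.27 and -1.21 in place of -0.78 and -1.57, and Nfkbie was no longer 2-fold apart.

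In dendritic-like barcodes Nfkbia and Nfkbiz were lower than in monocyte-like ones, while Traf1 was not. Of 4 measured genes 2 were at least 2-fold lower in both libraries, against 15.7% of 1783 genes, and 0 were higher, against 3.25%. In library 2 dendritic-like barcodes held 34 UMIs of Nfkbia, 3 of Nfkbiz, 4 of Nfkbie and 15 of Traf1. All 4 thus passed the minimum of UMIs there through the monocyte-like class. A gene low in both classes could not enter, so the count is a description only. Nfkbia had ratios of 0.301 (0.246 to 0.364) and 0.273 (0.188 to 0.385), and Nfkbiz of 0.169 (0.0979 to 0.272) and 0.138 (0.0281 to 0.411). Traf1 was 2.15-fold (1.62 to 2.81) and 1.24-fold (0.662 to 2.18) the monocyte-like level, and Nfkbie 0.649 and 0.311 of it. Within the class, Nfkbia stood at 1607 and 1858 CPM in the 18 and 5 migratory dendritic-like barcodes and at 660 and 247 CPM in the conventional ones. The migratory barcodes were 18 of 44 and 5 of 35 of the class, and the part of this mix in the ratios was not tested.

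Against NK-like barcodes, CD8 T-like ones could be compared in Nfkbia and Traf1, and neither was 2-fold apart. Over all genes measured, 7.54% of 1194 were higher and 3.35% were lower. The CD8 T-like over NK-like ratios were 0.880 (0.673 to 1.16) and 0.898 (0.556 to 1.53) for Nfkbia, and 1.01 (0.714 to 1.45) and 1.30 (0.567 to 3.65) for Traf1. These intervals leave room for a difference of up to 1.45-fold in Traf1 in library 1 and more in library 2. Over B-like barcodes 13.1% of 1103 genes were higher in CD8 T-like ones. Library 2 had 10 B-like barcodes, with 1 UMI each of Nfkbia and Birc3 and none of Traf1, too few for a comparison of these genes. In library 1, Nfkbia was at 1.15 of the B-like level (0.795 to 1.70), Traf1 was 5.19-fold higher (2.18 to 16.2) and Birc3 stood at 0.153 of the B-like level (0.0779 to 0.299).

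Relative to all UMIs of the class, melanoma-like barcodes were low in 7 of the 9 genes. In monocyte-like barcodes 7 of 9 were higher, against 13.2% of 11224 genes. In macrophage-like barcodes 7 of 9 were higher, against 13% of 11278 genes, and in CD8 T-like barcodes 5 of 8, against 9.53% of 11154 genes. Traf1 stood 130-fold and 126-fold higher in monocyte-like barcodes, Nfkbia 76.3-fold and 54.1-fold, Birc3 61.1-fold and 32.3-fold, Tnfaip3 51.6-fold and 30.5-fold, Bcl3 49.5-fold and 43.6-fold, Nfkbiz 45.5-fold and 17.98-fold, and Nfkbie 21.7-fold and 30.5-fold. In macrophage-like barcodes Tnfaip3 led with 51.0-fold and 32.0-fold, and in CD8 T-like barcodes Traf1 led with 107-fold and 161-fold. Nfkbib and Tnip1 did not pass in any of the 3 comparisons. Monocyte-like barcodes had 2.30-fold and 1.25-fold the melanoma-like level of Nfkbib and 1.54-fold and 1.46-fold that of Tnip1, and macrophage-like barcodes 1.34-fold and 0.959-fold and 1.26-fold and 1.08-fold. In CD8 T-like barcodes Nfkbiz was 1.35-fold and 6.56-fold the melanoma-like level and did not pass. The median log2 ratio of all genes over melanoma-like barcodes lay between -0.69 and -0.33, and with median-of-ratios scaling between -0.34 and -0.17. Median-of-ratios scaling also moved the share of higher among all called genes from 35.1% to 48.9% for monocyte-like over melanoma-like barcodes, and from 69.2% to 83.9% for CD8 T-like over NK-like ones. How much of the melanoma-like levels is free RNA of immune cells was not tested. Melanoma RNA was estimated at 1.95% to 2.96% of the immune classes' UMIs in library 1 and 4.26% to 6.60% in library 2. Over the 3 immune classes compared here that amounts to at most 6.89% of the level of Nfkbib, 6.13% of that of Tnip1 and 1.82% of that of any of the other 7 genes.

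Levels per class can come from a few barcodes, so the share of barcodes with at least 1 UMI was taken after thinning each barcode to 1000 UMIs and leaving out shallower ones. This used 560 and 296 monocyte-like, 397 and 587 macrophage-like, 251 and 162 CD8 T-like and 2225 and 5282 melanoma-like barcodes. Nfkbia was then seen in 82.3% (78.9 to 85.4) and 60.5% (54.6 to 66.1) of monocyte-like, 51.9% (46.8 to 56.9) and 33.4% (29.6 to 37.4) of macrophage-like and 22.7% and 29.0% of CD8 T-like barcodes. In melanoma-like barcodes it was seen in 3.42% and 2.71%, whether from their own RNA or from free RNA. At full depth the shares were 85.8% and 63.2%, 71.4% and 52.4%, and 37.4% and 22.7% for monocyte-like, macrophage-like and melanoma-like barcodes, whose median depths were 1961 and 1087, 3715 and 2540, and 17910.5 and 11803 UMIs. Thinning therefore widened the gap between monocyte-like and macrophage-like barcodes. CD8 T-like barcodes, with median depths of 1607 and 1516 UMIs, had Nfkbia in 35.8% and 37.2% at full depth. The deeper melanoma-like barcodes thus had no lower share than these in library 1. Full-depth shares of Nfkbiz were 23.8% and 14.4% in melanoma-like and 5.76% and 11.5% in CD8 T-like barcodes. Those of Traf1 were 2.40% and 1.18% against 32.4% and 22.9%.

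Nfkbiz was seen in 50.9% and 16.6% of monocyte-like, 36.0% and 12.6% of macrophage-like and 2.38% and 1.36% of melanoma-like barcodes at equal depth. Traf1 was seen in 18.8% and 7.43% of monocyte-like, 5.04% and 2.56% of macrophage-like, 18.3% and 13.6% of CD8 T-like and 0.360% and 0.151% of melanoma-like barcodes. Nfkbie was seen in 11.4% and 14.2% of monocyte-like and 3.53% and 3.07% of macrophage-like barcodes. Over the 9 genes, 8 had a higher share in the monocyte-like class than in the macrophage-like class in both libraries, against 30.2% of the 5006 genes measured. The exception was Nfkbib, at 7.86% and 4.73% against 4.79% and 4.94%. Among the 8, no order was read for Tnfaip3 (14.5% and 7.09% against 11.6% and 6.81%), whose share in library 2 went against its CPM. At 500 UMIs Tnfaip3 turned in library 2 (2.74% against 3.22%), which left 7 of 9. At full depth 3 of 9 had the higher share in monocyte-like barcodes, against 4.41% of all genes.

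**Figure D3:**
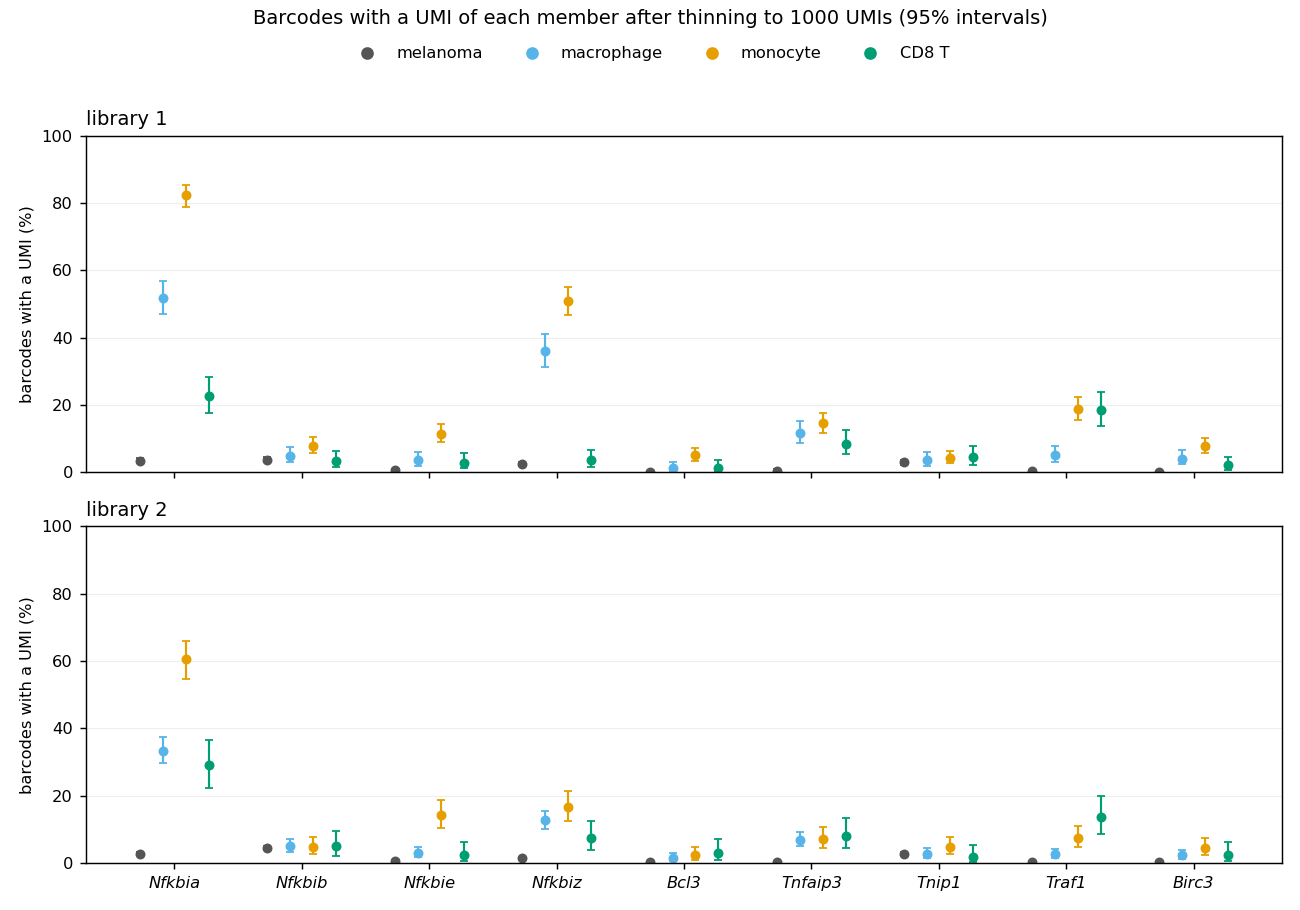
Share of barcodes (percent) with at least 1 UMI of each gene after thinning to 1000 UMIs, by class and library, with 95% Clopper-Pearson intervals. Monocyte-like barcodes have the highest Nfkbia share of the 4 large classes in both libraries (82.3% and 60.5%), and melanoma-like barcodes the lowest (3.42% and 2.71%).

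The monocyte-like level of Nfkbia was spread over most barcodes. At 1000 UMIs each, library 1 had a median of 3 Nfkbia UMIs per barcode, a 90th percentile of 6 and a maximum of 13, and library 2 had a median of 1, a 90th percentile of 3 and a maximum of 15. The top 10% of monocyte-like barcodes held 26.6% and 41.3% of these UMIs. The variance was 2.04 and 2.56 times the mean in monocyte-like barcodes and 2.22 and 1.74 times the mean in macrophage-like ones, where 1 would be counting error alone.

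Set side by side, library 2 held less Nfkbia, Nfkbiz and Tnfaip3 than library 1 in both monocyte-like and macrophage-like barcodes. In monocyte-like barcodes 3 of 9 genes were at least 2-fold lower in library 2, against 2.87% of 4072 genes, and in macrophage-like barcodes 3 of 9, against 1.74% of 6372 genes. Nfkbia in library 2 stood at 0.481 (0.445 to 0.520) of library 1 in monocyte-like barcodes and at 0.383 in macrophage-like ones, and Nfkbiz at 0.298 (0.247 to 0.356) and 0.303. Tnfaip3 stood at 0.393 (0.269 to 0.559) and 0.416. In macrophage-like barcodes the log2 ratio of Tnfaip3 was -1.26, but -0.96 as a mean over barcodes and -0.65 when thinned. The monocyte-like log2 ratio of Nfkbia was -1.05, but -0.999, just short of 2-fold, with a stricter gate and -0.98 with barcodes placed by the nearest class profile. Not all of the 9 genes were lower. Nfkbie was at 1.28 (0.962 to 1.69) in monocyte-like and 0.989 in macrophage-like barcodes, and Bcl3 at 0.851 and 1.26. Traf1 was at 0.543 and 0.639, and Birc3 at 0.557 and 0.649, short of 2-fold. Traf1 did pass 2-fold in monocyte-like barcodes when thinned, with a log2 ratio of -1.49 in place of -0.87. It also passed in macrophage-like barcodes as a mean over barcodes. The median log2 ratio of the 9 genes was -0.82 in monocyte-like and -0.62 in macrophage-like barcodes, against -0.05 and 0.00 for all genes.

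Other classes were mixed. In neutrophil-like barcodes 1 of 2 measured genes was lower in library 2, against 11.7% of 377 genes: Nfkbia, at 0.300 (0.242 to 0.369), with Nfkbiz at 0.510 (0.344 to 0.740). In dendritic-like barcodes 2 of 2 were lower, against 4.5% of 533 genes, Nfkbia at 0.438 and Traf1 at 0.313, with 18 migratory barcodes in library 1 and 5 in library 2. Nfkbia stood at 0.374 (0.214 to 0.628) in the conventional barcodes and 1.16 (0.586 to 2.15) in the migratory ones. Traf1 stood at 0.725 (0.294 to 1.70) and 0.372 (0.116 to 0.927) in the same parts. What the mix of parts adds to the ratios of the class was not tested. In CD8 T-like barcodes 1 of 6 was higher in library 2, against 1.52% of 3158 genes: Nfkbiz, at 3.66 (2.07 to 6.66). Nfkbia stood there at 1.26 (1.03 to 1.55), and in melanoma-like barcodes at 0.678.

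Rel, the targeted gene, was lower in library 2 in monocyte-like and macrophage-like barcodes, while its interval spanned 1 in CD8 T-like ones. It was also lower in dendritic-like barcodes, at 0.465 (0.289 to 0.727) of library 1, in B-like ones, at 0.210 (0.0250 to 0.788) on 2 UMIs in library 2, and slightly in melanoma-like ones, at 0.837 (0.744 to 0.941). In neutrophil-like barcodes the ratio was 0.683 (0.219 to 1.84). Within the dendritic-like class the conventional barcodes had a ratio of 1.16 (0.639 to 2.10), and the migratory ones 0.135 (0.0160 to 0.512) on 2 UMIs in library 2. Rel stood at 320 and 104 CPM in monocyte-like, 121 and 23.8 CPM in macrophage-like and 140 and 160 CPM in CD8 T-like barcodes. In these 3 classes library 2 had 0.326 (0.243 to 0.430), 0.196 (0.137 to 0.274) and 1.15 (0.833 to 1.56) times the level of library 1. Which part of Rel the loxP sites flank is not stated in the labels, and 3′ tags outside it check nothing about a genotype. Median depth in monocyte-like barcodes was 1961 UMIs in library 1 and 1087 in library 2. A list of 14 genes that respond to tissue digestion was lower in library 2 in all of the 8 classes except NK-like barcodes (3019 and 3549 CPM). It stood at 8946 and 6785 CPM in monocyte-like, 8013 and 4394 CPM in macrophage-like, 10014 and 8334 CPM in neutrophil-like and 2541 and 2243 CPM in CD8 T-like barcodes. The part of digestion, of depth and of free RNA in the differences between libraries was not tested, and genotype, pool and library cannot be told apart.

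**Figure D4:**
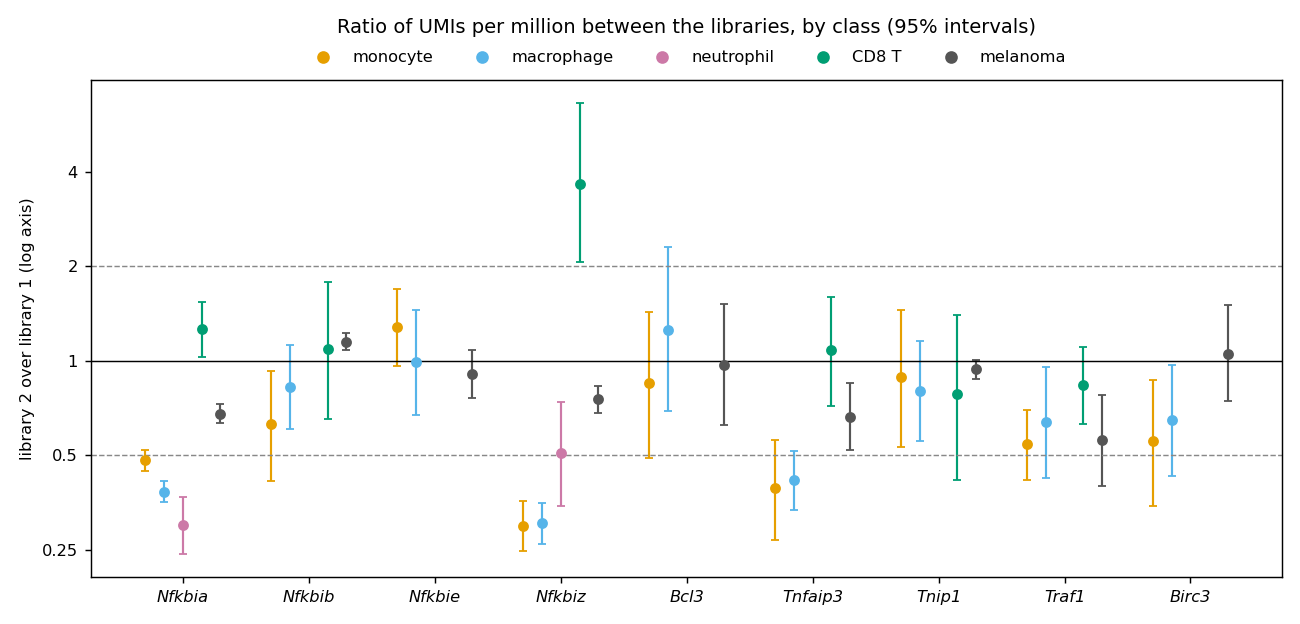
Ratio of CPM in library 2 to library 1 (log axis) for those of the 9 genes with enough UMIs in a class. Bars are 95% conditional binomial intervals for counting error. Monocyte-like, macrophage-like, neutrophil-like, CD8 T-like and melanoma-like barcodes are drawn. Nfkbia, Nfkbiz and Tnfaip3 lie past the 2-fold line on the lower side in monocyte-like and macrophage-like barcodes. Nfkbie lies near the line of equal levels there, and Nfkbiz lies above that line in CD8 T-like barcodes.

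The rest of the pathway was described from 5 lists with 67 genes, all found in the matrix. Between monocyte-like and macrophage-like barcodes, 2 of 4 measured NF-kB subunits were higher (Rel and Relb), 1 of 8 kinases and adaptors (Ikbkb, a kinase of IkB), 1 of 5 receptors (Tlr2) and 2 of 12 other feedback genes (Zc3h12a, which encodes an RNase of inflammatory transcripts, and Socs3), with 0 lower in these 4 lists. Of 17 measured targets 3 were higher, Il1b, Ptgs2 and Gadd45b, and 1 was lower, Bcl2l1, an inhibitor of cell death. Over all 5006 genes measured, 4.99% were higher and 8.07% were lower. Il1b, which encodes interleukin-1 beta, was 8.35-fold and 22.4-fold higher, and Ptgs2, which encodes a prostaglandin synthase, 4.23-fold and 8.68-fold. Rel was 2.63-fold (2.22 to 3.12) and 4.38-fold (2.89 to 6.67) higher, and Bcl2l1 stood at 0.279 and 0.352. Irak2, a kinase adaptor of Toll-like receptors, had 2.00-fold and 4.69-fold the macrophage-like level and fell just under 2 in library 1 with the 0.5 UMIs added, so that it is not in the count.

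Against neutrophil-like barcodes, the targets Cxcl2 and Ccl3, both chemokine genes, were lower in monocyte-like barcodes, at 0.172 and 0.394 and at 0.0989 and 0.256, and Cd83 was 18.9-fold and 14.5-fold higher. Over all 1675 genes measured there, 3.76% were lower and 16.5% were higher. In dendritic-like barcodes 7 of 11 measured targets (Il1b, Cxcl2, Ccl3, Ccl4, Ptgs2, Sod2 and Cflar) and 3 of 7 other feedback genes (Zc3h12a, Ier3 and Socs3) were lower than in monocyte-like ones. Over all 1783 genes measured, 15.7% were lower and 3.25% were higher in dendritic-like barcodes. The target Ccl5 was higher there, and Rel was 2.05-fold and 2.93-fold higher. Between CD8 T-like and NK-like barcodes Rel, Tnfrsf4, Ccl3, Ccl4 and Bcl2a1b were higher and Ccl5 lower, with 0 of 3 measured other feedback genes apart. Over all 1194 genes measured in these classes, 7.54% were higher and 3.35% were lower. Over melanoma-like barcodes all 5 subunits were higher in both monocyte-like and macrophage-like barcodes, where 13.2% and 13% of all genes were. Of 14 measured other feedback genes, 7 were higher in monocyte-like barcodes (Nfkbid, Tnip3, Cyld, Zc3h12a, Zfp36, Ier3 and Socs3) and 1 was lower (Otud7b). In macrophage-like barcodes 5 were higher (Nfkbid, Tnip3, Zc3h12a, Zfp36 and Socs3) and 2 were lower (Rnf11 and Otud7b). Over all genes measured, 2726 of 11224 were lower in monocyte-like and 2141 of 11278 in macrophage-like barcodes.

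Across 19 points, each a class of 1 library with at least 20 barcodes, the genes most like each member were found by Pearson's r of log2(CPM + 1) over 11670 genes. The points included classes beyond the 8 classes above. These points share libraries and depth, and the values are descriptions. For Nfkbia they were Pim1 (0.96), Slfn2 (0.94) and Entpd1 (0.92), for Tnfaip3 Junb (0.93), Gmfg (0.92) and Slfn2 (0.91), and for Traf1 Cd52 (0.93), Gpr132 (0.93) and Glipr2 (0.92). Slfn2, a regulator of immune cell quiescence, thus came up for both Nfkbia and Tnfaip3. For Nfkbiz they were Vsir (0.91), Selenok (0.89) and Slc15a3 (0.88), for Nfkbie Tln1 (0.89), Irf1 (0.86) and Ifi35 (0.85), and for Bcl3 Zc3h12a (0.85), Capzb (0.85) and Vav3 (0.83). For Birc3 they were Nfkbid (0.92), which encodes another nuclear IkB, Inpp5d (0.90) and Btg1 (0.90). For Nfkbib they were Napg (0.93), Wdr1 (0.92) and Dnttip1 (0.91), and for Tnip1 Nucb1 (0.83), Galnt6 (0.83) and Golm1 (0.82). Within the list, 15 of 36 pairs had an r over 0.5, against 10.5% of all pairs of genes over the same points. They were led by Nfkbia with Tnfaip3 (0.81) and Tnfaip3 with Traf1 (0.80), and Nfkbib and Tnip1 followed the others least, with r between -0.27 and 0.23.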

How the data were processed

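Droplet 3′ single-cell RNA sequencing covered 2 samples, 1 per genotype. The authors deposited raw UMI counts, without normalisation, in 1 filtered matrix of 18252 barcodes and 33700981 entries. Cell Ranger and mm10 are named in the submitters' processing notes, and per the file headers the matrix came from software version 3.0.2. The members and lists were chosen with earlier results of these data known.

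Filters asked for 500 UMIs and 200 genes or more and no more than 10% mitochondrial UMIs. Melanoma-like barcodes had at least 30 melanoma marker UMIs per 10000 and at least 3 melanoma markers, and immune-like ones under 20. Immune classes needed 3 markers (macrophage, monocyte, neutrophil) or 2 markers (others), and the class with most markers won. Barcodes passing gates of different lineages or tied were left out in place of a doublet caller.

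CPM is a gene's summed UMIs over all UMIs of the class in that library. Levels have exact Poisson, shares exact Clopper-Pearson and ratios exact conditional binomial intervals. A class with 0 UMIs entered the 2-fold rule at a floor of 3 counts, and log2 ratios and the rule used a pseudocount of 0.5. All 9 genes, Rel and, per comparison, the 4 highest and 4 lowest ratios of list genes could be named; genes called in a list are named beside their count too. Other gates, filters, depths and scalings were tried. On simulated counts for monocyte-like over macrophage-like barcodes (4915 genes), 199 of 200 genes changed 4-fold were recovered and 0 of 4715 unchanged genes called. Changes near 2-fold were not simulated, so these figures do not cover ratios close to that line. The scripts ran in Python 3.11.15 (pandas 2.3.3, scipy 1.17.1, numpy 2.4.6).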

Additional observations from a re-analysis of the deposited data

Results flagged for a closer look

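Nfkbia was higher in library 2 than in library 1 in CD8 T-like barcodes, with a ratio of 1.26 (1.03 to 1.55), and lower in melanoma-like, macrophage-like, monocyte-like, neutrophil-like and dendritic-like barcodes. Nfkbiz was higher in library 2 in CD8 T-like barcodes, at 3.66 (2.07 to 6.66), and lower in melanoma-like, macrophage-like, monocyte-like and neutrophil-like barcodes. Nfkbib was higher in library 2 in melanoma-like barcodes, at 1.15 (1.09 to 1.22), and lower in monocyte-like ones, at 0.629. Each of these pairs of classes moved in opposite directions between the libraries, by intervals that treat UMIs as independent. For Nfkbia in CD8 T-like barcodes thinned to 1000 UMIs, the variance was 1.86 and 1.38 times the mean. The share of the class with Nfkbia was 35.8% and 37.2% at full depth. It was 13.3% and 12.8% at 500 UMIs, and 22.7% and 29.0% at 1000. Where Gzmb was seen, Nfkbia went from 278 CPM in library 1 to 426 in library 2, and elsewhere in the class from 328 to 337. The difference between the classes was not tested, since there is 1 library per genotype.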

How the results depend on the processing

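Of 216 counts of genes recomputed under other settings, 202 stayed within 1.5 times the main count. Monocyte-like over neutrophil-like barcodes had 0 genes higher with at least 1000 UMIs per barcode, with barcodes placed by the nearest class profile and when thinned to 1000 UMIs, and 1 lower (Nfkbiz) with median-of-ratios size factors. Monocyte-like over macrophage-like barcodes had 5 higher with the nearest profile and 5 with size factors. Dendritic-like over monocyte-like barcodes had 1 higher (Traf1) with a stricter gate and 4 lower with the nearest profile. CD8 T-like over B-like barcodes had 1 higher (Traf1) with the nearest profile and 1 lower (Birc3) with no minimum of UMIs. Thinned, fewer genes could be measured, and over melanoma-like barcodes 3 of 5 were higher in monocyte-like, 3 of 5 in macrophage-like and 1 of 4 in CD8 T-like barcodes. At full depth 3 genes, not 8, had a higher share in monocyte-like than macrophage-like barcodes. The cause was not tested for the others. Of 1104 log2 ratios, 64 moved beyond their interval and 0 called ones changed sign. Over all ratios, called or not, 8 of 59 had the opposite sign to the main value when thinned to 1000 UMIs. With a stricter gate it was 6 of 107, and with the copied barcodes kept 0 of 110. No paired analysis was possible because each genotype has 1 library. Neutrophil-like, dendritic-like, NK-like and B-like barcodes were too few to measure most of the 9 genes.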

Other observations

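Within classes the 9 genes were uneven too; these parts were chosen after their values were seen. Monocyte-like barcodes with Thbs1 and without Plac8 or Hp (40 and 70 barcodes) had Nfkbia at 3675 and 1819 CPM, Nfkbie at 201 and 201 CPM and Nfkbiz at 983 and 260 CPM. Those with Plac8 or Hp and without Thbs1 (231 and 114) had Nfkbia at 2273 and 876 CPM, Nfkbie at 115 and 109 CPM and Nfkbiz at 616 and 124 CPM. The remaining monocyte-like barcodes, with neither or both (308 and 291), had Nfkbia at 3298 and 1501 CPM, Nfkbie at 100.4 and 146 CPM and Nfkbiz at 962 and 288 CPM. The digestion-response list stood at 8679 and 6389 CPM in the Thbs1 barcodes and at 9252 and 8543 CPM in the Plac8 or Hp barcodes. Between the Thbs1 and the Plac8 or Hp barcodes, no order was read for Traf1 (302 and 106 against 267 and 147 CPM) or Tnfaip3 (235 and 35.4 against 138 and 62.0 CPM). In library 2 Traf1 rested on 9 and 19 UMIs and Tnfaip3 on 3 and 8. The intervals of these 2 genes overlapped in both libraries, and so did those of Nfkbie.

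Macrophage-like barcodes above the median of MHC class II genes (253 and 264) had Nfkbie at 42.3 and 46.8 CPM, against 17.9 and 21.7 CPM below it (160 and 358 barcodes), and Traf1 at 44.2 and 34.0 against 27.5 and 16.99 CPM. Nfkbia hardly differed between them, at 1276 and 506 against 1419 and 515 CPM. In CD8 T-like barcodes with a Gzmb UMI, a gene of cytotoxic granules (100 and 89 barcodes), Traf1 stood at 255 and 159 CPM, against 164 and 191 CPM without one. The intervals overlapped in library 2 (110 to 222 against 135 to 262), so no direction was read there. No test was made of any of these.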
